A study of Mus musculus with 8 samples.

Results

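The miR-30 family is a group of microRNAs (miRNAs), short RNAs that guide Argonaute proteins to messenger RNAs and lower their output. Each family gene gives a hairpin whose 5p and 3p strands can both be released, and the seed, bases 2 to 8 of the mature strand, is central to target pairing. In many tissues the 5p strands are the abundant ones, and the family is known for targets in cell death, autophagy and differentiation. The 7 members described here were chosen by name: mmu-miR-30a-5p, mmu-miR-30b-5p, mmu-miR-30c-5p, mmu-miR-30d-5p and mmu-miR-30e-5p, and the 3p strands mmu-miR-30a-3p and mmu-miR-30e-3p. The species prefix is left out below. They are 7 of 3514 features, and of 1063 mature miRNAs, listed in either of the 2 deposited tables, and each of the 7 was in both tables.

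The cells were bone marrow-derived macrophages (BMDMs) of 10-week-old male C57BL/6J mice, grown with L929-conditioned medium as the source of Macrophage-Colony Stimulating Factor (M-CSF). Control BMDMs received no treatment, and the others were deprived of M-CSF for 36 h, a stimulus that drives macrophages into apoptosis. Both conditions were sequenced on 2 platforms. On the Ion Proton, each condition had 2 libraries from separate biological replicates. On the SOLiD, each condition had 1 library of total RNA and 1 of RNA cut from a gel at 25 to 40 nt, called size-selected here. The labels call the Ion Proton extract small RNA and the methods call it total RNA, and the wording of the methods is used here.

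Reads on listed features numbered 6053130 to 7760142 in the Ion Proton libraries and 4039837 to 12178454 in the SOLiD libraries. RNA integrity numbers were 8.4 to 8.9 in the Ion Proton run. For SOLiD total RNA they were 8.4 (control) and 7.5 (withdrawal), and for size-selected RNA 2.7 and 2.6. Of 6 miRNAs of blood and myeloid cells chosen as markers, 6 were in the Ion Proton table and 4 in the SOLiD table, and they summed to 68005 and 73997 counts per 1000000 (CPM) in Ion Proton control cells and 51107 and 58108 CPM after M-CSF withdrawal. In the SOLiD run their sums went from 384727 to 142967 reads per 1000000 (RPM) in total RNA and from 233197 to 95614 RPM in size-selected RNA. Most of these sums was miR-21a-5p, and not every marker was lower after withdrawal: miR-155-5p had 361 and 575 RPM in total RNA, and miR-223-3p 9577 and 10355 RPM in size-selected RNA. miR-142a-3p and miR-142a-5p, which define blood cells, were at 169 to 252 CPM and 544 to 784 CPM in the Ion Proton libraries. Of 15 miRNAs of other cells, 9 were in the Ion Proton table, where they summed to 247 and 255 CPM in control cells and 280 and 333 CPM after withdrawal. The 12 in the SOLiD table went from 5290 to 4304 RPM in total RNA and from 4014 to 6427 RPM in size-selected RNA. Most of each Ion Proton sum was miR-486a-5p and most of each SOLiD sum was miR-451a, so these sums are not alike between the runs. Among the erythroid markers, miR-451a was at 1.25 to 6.44 CPM in the Ion Proton libraries and 2394 to 3988 RPM in the SOLiD libraries. The erythroid miR-144-3p was low in both runs, at 1.03 to 2.45 CPM and 1.46 to 2.97 RPM. The erythroid miR-486a-5p was at 209 to 301 CPM and was not in the SOLiD table. The liver miR-122-5p was at 0 to 0.165 CPM and 52.7 to 89.6 RPM. The runs therefore differ in several of these markers as well as in kit and platform. The part of any of these in the differences between runs given below was not tested.

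The mature sequences were shown because they set how far the members can be told apart by their reads. RefSeq (GRCm38.p6) gave them for 5 of the 7 members, and capitals mark the seed.
miR-30a-5p: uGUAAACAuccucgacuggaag
miR-30e-5p: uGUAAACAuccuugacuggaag
miR-30c-5p: uGUAAACAuccuacacucucagc
miR-30a-3p: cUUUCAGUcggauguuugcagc
miR-30e-3p: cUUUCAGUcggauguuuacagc
The 3 printed 5p strands share the seed GUAAACA and their first 12 bases. miR-30a-5p and miR-30e-5p differ at 1 base, C13U, counted from 1 at the 5′ end of miR-30a-5p. miR-30a-5p and miR-30c-5p differ at 5 positions. The 3p strands carry another seed, UUUCAGU, and differ at 1 base, G18A. The printed strands are 22 or 23 nt long, below the 25 to 40 nt cut of the size-selected SOLiD libraries. How reads of them came to be in those libraries was not tested. A read that stops short of the differing base, or carries an error there, could belong to either member, and the sources used here do not give how such reads were counted.

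Mir30a lies on chromosome 1 (chr1:23272269-23272339, plus strand) and Mir30c-2 lies 19361 bp further on (chr1:23291701-23291784). Mir30e (chr4:120772606-120772697, minus strand) and Mir30c-1 (chr4:120769534-120769622) are 2983 bp apart, and both lie in introns of Nfyc, which encodes a subunit of the transcription factor NF-Y, on the same strand. Mir30b and Mir30d are neighbours on chromosome 15. Mature miR-30c-5p is the same from both of its genes, so that its count sums over 2 loci. The annotation also places Mir30f on the opposite strand of the Mir30e hairpin.

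The question was how strongly each member is represented in BMDMs and whether M-CSF withdrawal changes it. Reads per 1000000 reads on listed features are called CPM for the Ion Proton run and RPM for the SOLiD run. Since mature strands of the family have near equal lengths, levels were compared between members without a length correction. The order of the members differed between the runs, as given below, so it describes the reads of a run and not amounts in BMDMs. In a library of small RNA, CPM and RPM are shares. Fewer macrophages, less miRNA per cell and more of other RNAs cannot be told apart.

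In the Ion Proton run the family was mostly miR-30d-5p and miR-30a-5p. miR-30d-5p stood at 3784 and 4119 CPM in the control libraries and 2913 and 2910 CPM after M-CSF withdrawal. miR-30a-5p stood at 2080 and 2282 CPM in control cells and 1545 and 1534 CPM after withdrawal. These strands made up 58.9% to 59.4% and 31.3% to 32.7% of the reads of the 5 listed 5p strands in the 4 libraries. miR-30e-5p followed with 426 and 429 CPM in control cells and 308 and 302 CPM after withdrawal.

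The remaining members were lower. miR-30e-3p was at 179 and 196 CPM in control cells and 149 and 134 CPM after withdrawal. miR-30c-5p had 96.8 and 107 CPM in control and 98.1 and 116 CPM in withdrawal libraries, which overlap. miR-30a-3p was at 77.4 and 75.8 CPM in control cells and at 76.4 and 56.2 CPM after withdrawal, again with overlap. miR-30b-5p was the lowest member, with 40.1 and 39.8 CPM against 40.8 and 40.5 CPM, from 245 to 311 reads per library. The order miR-30d-5p, miR-30a-5p, miR-30e-5p, miR-30e-3p, miR-30c-5p, miR-30a-3p, miR-30b-5p was the same in each of the 4 Ion Proton libraries, and the values of neighbours in it did not overlap within either condition.

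**Figure D1:**
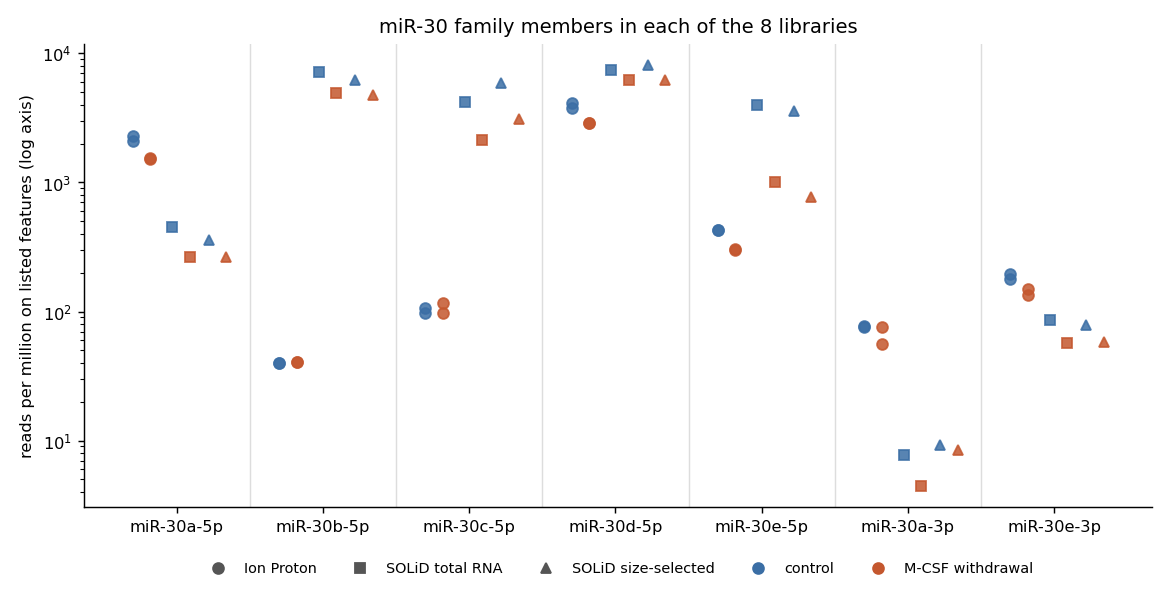
Reads per 1000000 on listed features (log axis) of the 7 members in each of the 8 libraries, with circles for Ion Proton, squares for SOLiD total RNA and triangles for SOLiD size-selected RNA, blue for control and orange for M-CSF withdrawal. miR-30b-5p sits near 40 CPM in every Ion Proton library and at 4733 to 7203 RPM in the SOLiD libraries, while miR-30a-5p is lower in the SOLiD libraries.

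The SOLiD libraries gave another order. miR-30d-5p again led, with 7389 RPM in control and 6193 RPM in M-CSF withdrawal total RNA, but miR-30b-5p came next with 7203 and 4937 RPM. miR-30c-5p had 4169 and 2143 RPM and miR-30e-5p had 4011 and 1010 RPM. miR-30a-5p, the runner-up of the Ion Proton run, had 450 and 263 RPM. Size-selected RNA gave the same order of the 5p strands, with 8130 and 6195 RPM of miR-30d-5p, 6252 and 4733 RPM of miR-30b-5p, 5944 and 3077 RPM of miR-30c-5p, 3586 and 772 RPM of miR-30e-5p, and 356 and 267 RPM of miR-30a-5p in control and withdrawal cells. In the closest pairs the 95% Wilson intervals of neighbours stayed apart: in control total RNA these were 7320 to 7460 RPM for miR-30d-5p and 7134 to 7272 RPM for miR-30b-5p, and 4117 to 4222 RPM for miR-30c-5p and 3960 to 4063 RPM for miR-30e-5p. Wilson intervals cover counting error only, and there was 1 library per group.

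Members that differ by 1 base thus changed places between the runs. In the Ion Proton libraries miR-30a-5p was above miR-30e-5p in 4 of 4 libraries, and in the SOLiD libraries it was below it in 4 of 4. The 3p strands of the same hairpins did not change places. miR-30e-3p stood above miR-30a-3p in all 8 libraries, with 85.9 and 57.2 RPM against 7.80 and 4.43 RPM in control and withdrawal total RNA, and 79.3 and 58.2 RPM against 9.20 and 8.42 RPM in size-selected RNA. The miR-30a-3p values rest on 34 to 82 reads per SOLiD library.

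**Figure D2:**
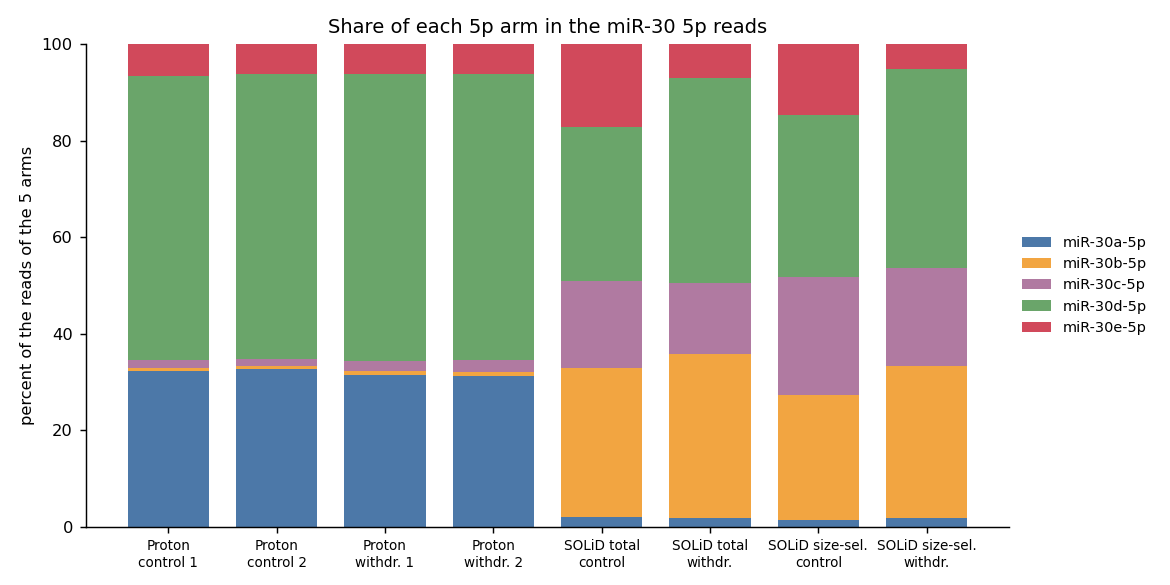
Percent of the reads of the 5 listed 5p strands that fell on each strand, 1 bar per library. The 4 Ion Proton bars are nearly alike, with miR-30d-5p at 58.9% to 59.4%, and the 4 SOLiD bars hold 25.8% to 33.9% of miR-30b-5p, which is at 0.571% to 0.832% in the Ion Proton bars, with a smaller share of miR-30e-5p after M-CSF withdrawal.

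As a whole the family took fewer reads after M-CSF withdrawal, and so did the miRNA pool. The 5 listed 5p strands together had 6427 and 6977 CPM in Ion Proton control cells and 4905 and 4902 CPM after M-CSF withdrawal. In the SOLiD run they went from 23222 to 14546 RPM in total RNA and from 24268 to 15045 RPM in size-selected RNA. All mature miRNAs together took 40.6% ± 0.878 (SD, n = 2) of the reads of Ion Proton control libraries and 29.7% ± 0.272 (SD, n = 2) after withdrawal, 82.0% and 41.1% in SOLiD total RNA, and 87.2% and 45.0% in size-selected RNA. Counted as a share of miRNA reads, the 5p strands held 1.65% ± 0.0601 (SD, n = 2) in Ion Proton control cells and 1.65% ± 0.0159 (SD, n = 2) after withdrawal. In SOLiD total RNA that share went from 2.83% to 3.54%, and in size-selected RNA from 2.78% to 3.34%. The family was therefore lower in every withdrawal library per read on all features, and per miRNA read it was within the replicate spread in the Ion Proton run and higher in both SOLiD pairs.

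The tests likewise moved with the scaling. In the Ion Proton run 3 of the 7 members, miR-30a-5p, miR-30d-5p and miR-30e-5p, were lower after M-CSF withdrawal by the quasi-likelihood test of edgeR, adjusted by the Benjamini-Hochberg method over the 2029 features tested, and none was higher. Among all features 24.6% passed in either direction and 8.97% passed as lower, and among the 600 mature miRNAs tested 13.3% passed as lower. When the normalization factors were set on mature miRNAs alone, 0 of the 7 passed at an adjusted p of 0.05, 2 had an unadjusted p under 0.05, and 21.7% of all features passed. Relative to all features, DESeq2 and limma called the same 3 and miR-30e-3p as well. They passed 477 and 542 of the 2029 features, 241 and 229 of them as lower. Leaving out 1 library leaves 1 library in a group, and calls are not given for such fits. By edgeR their log2 fold changes lay between -0.63 and -0.37 for miR-30a-5p. They lay between -0.56 and -0.32 for miR-30d-5p and between -0.55 and -0.42 for miR-30e-5p.

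miR-30a-5p changed by a log2 fold change of -0.45 (standard error 0.0787, adjusted p = 0.0192), which became -0.07 (adjusted p = 0.580) relative to miRNAs. miR-30d-5p changed by -0.39 (standard error 0.0741, adjusted p = 0.0246), and relative to miRNAs by -0.0036 (adjusted p = 0.973). miR-30e-5p changed by -0.44 (standard error 0.0706, adjusted p = 0.0152), or -0.05 relative to miRNAs (adjusted p = 0.713). These are close to the median over the 600 mature miRNAs, -0.39 relative to all features and -0.01 relative to miRNAs. The median over the 2029 features tested was 0.08, and 0.46 under the miRNA scaling.

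The other members did not pass in either scaling. The log2 fold change of miR-30e-3p was -0.35 (adjusted p = 0.0664), that of miR-30a-3p -0.16 (adjusted p = 0.559), that of miR-30b-5p 0.08 (adjusted p = 0.638) and that of miR-30c-5p 0.12 (adjusted p = 0.586). Relative to miRNAs, miR-30b-5p and miR-30c-5p had log2 fold changes of 0.46 (standard error 0.113, adjusted p = 0.0542) and 0.50 (standard error 0.120, adjusted p = 0.0503), the nearest to the threshold of the 7. Per 1000000 miRNA reads, miR-30b-5p had 98.4 ± 2.56 (SD, n = 2) in control cells and 137 ± 2.00 (SD, n = 2) after withdrawal, and miR-30c-5p 251 ± 12.8 (SD, n = 2) and 360 ± 38.4 (SD, n = 2).

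**Figure D3:**
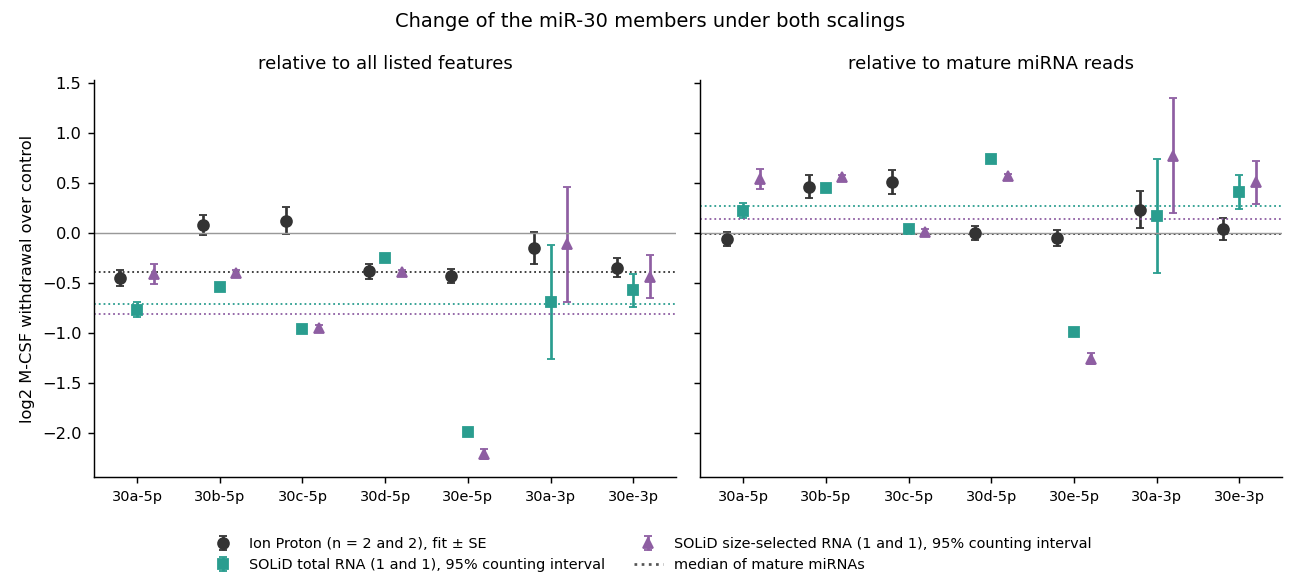
Log2 change of each member after M-CSF withdrawal relative to all listed features (left) and to mature miRNA reads (right), for the Ion Proton run (circles, fit ± standard error), SOLiD total RNA (squares) and SOLiD size-selected RNA (triangles), the SOLiD values with 95% counting intervals. Dotted lines mark the median of the mature miRNAs in each comparison, and miR-30e-5p in the SOLiD run, at -1.99 and -2.21 on the left, lies far below the other points in both panels.

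In the SOLiD run all 7 members were lower after withdrawal in both RNA preparations. miR-30a-3p had under 10 RPM in each of these libraries, so it is not among the miRNAs counted next. Of the 258 mature miRNAs with at least 10 RPM in both libraries of total RNA, 92.2% were lower. In size-selected RNA 76.3% of 262 were lower. Of all such features 43.4% and 29.2% were lower. Per miRNA read 1 of 7 members was lower in each preparation, against 34.5% and 39.7% of those miRNAs.

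That 1 member was miR-30e-5p. Its log2 ratio of RPM plus 1 was -1.99 in total RNA, from 23153 and 12304 reads, and -2.21 in size-selected RNA, from 31958 and 3120 reads. Per miRNA read the log2 ratio was -0.99 and -1.26. It ranked the 13th lowest of 258 miRNAs in total RNA and the 8th lowest of 262 in size-selected RNA. Its share of the 5p reads went from 17.3% to 6.95% and from 14.8% to 5.13%, while in the Ion Proton libraries it was 6.63% and 6.15% in control cells and 6.28% and 6.16% after withdrawal. These are single libraries and have no replicate check.

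The other 5p strands had smaller SOLiD ratios. miR-30c-5p had a log2 ratio of -0.96 in total RNA and -0.95 in size-selected RNA, or 0.03 and 0.01 per miRNA read. miR-30a-5p had -0.77 and -0.41, or 0.22 and 0.54 per miRNA read, and miR-30b-5p -0.54 and -0.40, or 0.45 and 0.55. miR-30d-5p had -0.25 and -0.39, or 0.74 and 0.56 per miRNA read, and its share of the 5p reads went from 31.8% to 42.6% and from 33.5% to 41.2%. The medians over mature miRNAs were -0.71 and -0.81, and 0.26 and 0.13 per miRNA read. Of the 3p strands, miR-30e-3p had -0.58 and -0.44, or 0.41 and 0.50 per miRNA read, opposite in sign to its partner strand, and the counting intervals of miR-30a-3p reached from -1.38 to -0.24 and from -0.71 to 0.45 without a pseudocount.

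A model of the 6 libraries of total RNA, with treatment and run as terms, called 1 of the 7 members by limma with Benjamini-Hochberg adjustment over 1701 features, of which 17.3% passed in either direction and 5.7% as lower, as did 9.71% of the 443 mature miRNAs. This was miR-30a-5p, with a log2 fold change of -0.59 (standard error 0.139, adjusted p = 0.0374), which became 0.04 (adjusted p = 0.903) per miRNA read. All 7 had negative estimates per read on all features, and 6 of 7 had positive ones per miRNA read, where 17.8% of all features passed but 0 of the 7 members did, at an adjusted or an unadjusted p of 0.05. miR-30e-5p had the most negative estimate, -0.99, with a standard error of 0.317 and an adjusted p of 0.0840. Without either SOLiD library the model rests on the Ion Proton run, and the estimate of miR-30e-5p was then -0.49. There 4 members were called as lower, as were 244 (without the control) and 242 (without the withdrawal library) of the 1701 features. Without any 1 of the Ion Proton libraries limma called 0 members, with 2 at an unadjusted p under 0.05. Those fits called 15 to 81 of the 1701 features, in either direction.

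The changes in the 2 runs were set against each other by the treatment by run term of the same model. With 1 SOLiD library per condition its standard errors hold no SOLiD replicate spread, and the lone libraries are assumed to vary like the Ion Proton ones. Under that assumption the term passed for 3 of 7 members, miR-30e-5p, miR-30c-5p and miR-30b-5p, each with a more negative estimate in the SOLiD run. Among the 1701 features 26% passed in either direction and 5% as more negative in the SOLiD run, and among the 443 mature miRNAs 11.5% passed as more negative. For miR-30e-5p the difference between the runs was -1.50 on the log2 scale (standard error 0.113, adjusted p = 0.00171), and -0.96 (standard error 0.125, adjusted p = 0.00538) per miRNA read. The differences of miR-30c-5p, -1.02 (adjusted p = 0.0222), and miR-30b-5p, -0.57 (adjusted p = 0.0372), became -0.48 (adjusted p = 0.124) and -0.02 (adjusted p = 0.930) per miRNA read. Per miRNA read the term also passed for miR-30d-5p under the same assumption, in the other direction (0.73, adjusted p = 0.00842), where 35.3% of all features passed.

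Ratios between strands of 1 library do not depend on its scaling. The strands of the mir-30e hairpin stood at 2.38 and 2.19 miR-30e-5p reads per miR-30e-3p read in Ion Proton control cells and at 2.06 and 2.25 after M-CSF withdrawal, which overlap. In SOLiD total RNA the ratio was 46.7 in control cells and 17.7 after withdrawal, and in size-selected RNA 45.2 and 13.3. Both SOLiD pairs had thus a lower ratio after withdrawal, while the Ion Proton difference was -0.08 on the log2 scale (exact two-sided permutation p = 0.667, where 2 against 2 libraries allow no p under 0.333). The mir-30a hairpin gave 26.9 and 30.1 miR-30a-5p reads per miR-30a-3p read in Ion Proton control cells and 20.2 and 27.3 after withdrawal (log2 difference -0.28, exact permutation p = 0.667). In SOLiD total RNA its ratio was 57.7 and 59.3, and in size-selected RNA 38.6 and 31.7.

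**Figure D4:**
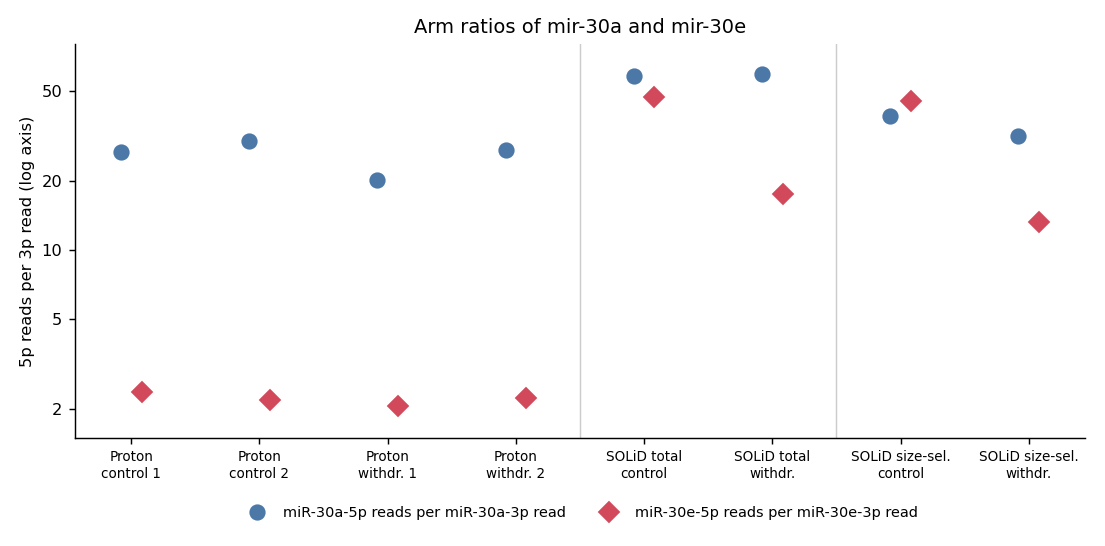
Reads of the 5p strand per read of the 3p strand of the same hairpin (log axis) in each of the 8 libraries, with blue circles for mir-30a and red diamonds for mir-30e. The mir-30e ratio lies between 2.06 and 2.38 in the Ion Proton libraries, at 46.7 and 45.2 in SOLiD control libraries and at 17.7 and 13.3 after withdrawal, while the mir-30a ratio stays between 20.2 and 59.3.

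Strands of neighbouring genes were set against each other in the same way. The miR-30c-5p count sums over Mir30c-2, near Mir30a, and Mir30c-1, near Mir30e. Its ratios therefore share a denominator and do not compare neighbouring genes alone. miR-30b-5p and miR-30d-5p, from the pair of genes on chromosome 15, stood at 0.0106 and 0.00967 in Ion Proton control cells and 0.0140 and 0.0139 after withdrawal, a log2 difference of 0.46 (exact permutation p = 0.333). In the SOLiD libraries the ratio was 0.975 and 0.797 in total RNA and 0.769 and 0.764 in size-selected RNA, log2 differences of -0.29 and -0.0091 between single libraries. miR-30a-5p over miR-30c-5p went from 21.5 and 21.3 to 15.7 and 13.3 in the Ion Proton run (log2 difference -0.57, exact permutation p = 0.333), and from 0.108 to 0.123 and from 0.0598 to 0.0866 in the SOLiD pairs. miR-30e-5p over miR-30c-5p was lower after withdrawal in both runs. It went from 4.40 and 4.00 to 3.14 and 2.61 in the Ion Proton run (log2 difference -0.55, exact permutation p = 0.333), from 0.962 to 0.471 in SOLiD total RNA and from 0.603 to 0.251 in size-selected RNA. In these 3 comparisons the Ion Proton groups did not overlap, and the exact permutation p is the smallest that the test can give.

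Other strands of the mir-30 genes were also listed. The 4 of them, miR-30b-3p, miR-30c-1-3p, miR-30c-2-3p and miR-30d-3p, had at most 11.3 RPM in any SOLiD library. In the Ion Proton run miR-30b-3p had 153 and 168 CPM in control cells and 174 and 169 CPM after withdrawal, above its 5p partner in 4 of 4 libraries, whereas in the SOLiD libraries it rested on 5 to 23 reads. miR-30d-3p was at 23.3 and 23.0 CPM in control cells and 14.1 and 15.5 CPM after withdrawal, without overlap. Its log2 fold change was -0.59 (standard error 0.138) with an adjusted p of 0.0444 by edgeR. That p was 0.02385 with RLE factors, 0.0313 without normalization factors and 0.0391 with a minimum summed count of 10. By limma the adjusted p was 0.036, and by DESeq2 it was 0.140. By edgeR it was 0.0978 with the replicate block, 0.0534 with a minimum summed count of 1 and 0.376 relative to miRNAs. With single libraries left out the log2 fold change lay between -0.69 and -0.50. Relative to miRNAs miR-30b-3p passed as higher (0.53, standard error 0.0928, adjusted p = 0.0193), with 0.15 (adjusted p = 0.317) relative to all features. The other strands of the mir-30c genes had at most 23.6 CPM and did not pass in either scaling.

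The miRNAs whose pattern was most like that of the summed 5p strands were found by the root mean square difference of the log2 ratios of the 4 withdrawal libraries to the control mean of the same run and preparation, over 133 miRNAs with a mean of at least 10 CPM or RPM in each. These log2 ratios share their control libraries, and the measure is a description. They were miR-27a-3p with a difference of 0.137, miR-107-3p with 0.137, miR-148b-3p with 0.144, miR-425-3p with 0.149 and miR-425-5p with 0.149, where the median over the 133 was 0.450. By the same measure miR-30e-3p lay 0.143 from the 5p sum, miR-30a-5p 0.150, miR-30d-5p 0.258, miR-30a-3p 0.365, miR-30b-5p 0.371, miR-30c-5p 0.420 and miR-30e-5p 1.01. The 5p strands are parts of that sum, so their closeness to it is partly built in.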

How the data were processed

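The authors mapped Ion Proton reads to mm10 with bowtie2 2.2.4 (up to 10 places per read) after trimming with cutadapt 1.2.1, and SOLiD reads with LifeScope. They deposited Ion Proton read counts per feature without normalization and SOLiD reads per 1000000 reads on listed features (RPM). All SOLiD values (100%) were whole multiples of 1 read within 0.01 reads, so reads were recovered.

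For the Ion Proton counts, the quasi-likelihood test of edgeR 4.0.16 (R 4.3.3) was used after TMM scaling, with a summed count of at least 5. Both runs were tested with limma 3.58.1 (trend) on log2 of CPM or RPM plus 1, with at least 5 reads in each run. P-values were adjusted over all features tested by the Benjamini-Hochberg method, with a threshold of 0.05. The fits were tested on simulated data in which the libraries of both runs varied alike. That simulation therefore cannot test the assumption behind the treatment by run term. Other settings included DESeq2 1.42.0, voom, other scalings, filters and pseudocounts, leaving out single libraries, and a replicate block. Ratios used Python 3.11.15, numpy 2.4.6, pandas 2.3.3 and scipy 1.17.1, and figures matplotlib 3.10.9. The Ion Proton replicates scattered by 20.3 and 19.1 times the counting variance. Members named were the 7, the 4 other strands of the same genes, the markers and the 5 miRNAs of most similar pattern. The members, lists and tests were chosen with earlier results of these data known.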

Additional observations from a re-analysis of the deposited data

Results flagged for a closer look

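The treatment by run term of the limma fit over 1701 features passed for 3 members, when the lone SOLiD libraries are assumed to vary like the Ion Proton ones. The log2 fold change in the SOLiD run minus that in the Ion Proton run was -1.50 for miR-30e-5p (adjusted p = 0.00171), -1.02 for miR-30c-5p (adjusted p = 0.0222) and -0.57 for miR-30b-5p (adjusted p = 0.0372). Per miRNA read these differences were -0.96 (adjusted p = 0.00538), -0.48 (adjusted p = 0.124) and -0.02 (adjusted p = 0.930), and the term passed for miR-30d-5p in the other direction (0.73, adjusted p = 0.00842). The same term passed for 26% of all features, and for 35.3% per miRNA read. The SOLiD part of each difference rests on 1 library per condition, with no replicate spread of its own, whose RNA integrity numbers were 8.4 in control cells and 7.5 after withdrawal. The size-selected libraries, which were not in the fit, gave log2 ratios of -2.21, -0.95 and -0.40 for these members. Kit, platform and replicate cannot be told apart between the runs.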

How the results depend on the processing

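In the Ion Proton run, scaling to mature miRNA reads left 0 of 3 calls, and turned miR-30a-3p to 0.23 and miR-30e-3p to 0.036. In the model of both runs it left 0 calls and turned the estimates to 0.041 for miR-30a-5p, 0.46 for miR-30b-5p, 0.36 for miR-30c-5p, 0.26 for miR-30d-5p, 0.21 for miR-30a-3p and 0.17 for miR-30e-3p. In the treatment by run term it turned miR-30a-5p to 0.27 and miR-30e-3p to 0.36. In the SOLiD run it left 1 member lower in each preparation in place of 7, with log2 ratios in total RNA of 0.22 for miR-30a-5p, 0.45 for miR-30b-5p, 0.035 for miR-30c-5p, 0.74 for miR-30d-5p, 0.16 for miR-30a-3p and 0.41 for miR-30e-3p, and in size-selected RNA of 0.54, 0.55, 0.0057 and 0.56 for miR-30a-5p, miR-30b-5p, miR-30c-5p and miR-30d-5p, 0.77 for miR-30a-3p and 0.50 for miR-30e-3p. Conversely, per read on all features the log2 ratio of the summed 5p share in the Ion Proton run was -0.45, against 0.0021 per miRNA read.

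RLE factors turned miR-30b-5p to -0.043 and miR-30c-5p to -0.0010 in the Ion Proton run, and DESeq2 gave -0.043 and -0.0011. Leaving out single libraries of the Ion Proton run left 1 library in a group, and calls are not given for those fits of that run. In those fits miR-30b-5p lay between -0.031 and 0.095, miR-30c-5p between -0.064 and 0.26 and miR-30a-3p between -0.37 and 0.034, with -0.017 for miR-30c-5p and 0.034 for miR-30a-3p without the second withdrawal library. In both runs 4 members passed with each library centred on its median, 2 with voom and 0 with edgeR on reads. With edgeR on reads 4 had an unadjusted p under 0.05. Of the 1701 features, 408, 422 and 271 passed in these fits, 230, 145 and 104 of them as lower. With each library left out, 0 to 4 members passed, and 15 to 564 of the 1701 features. There miR-30b-5p lay between -0.22 and 0.024 and miR-30c-5p between -0.44 and 0.064. Of the ratios within a library, leaving out 1 library gave log2 differences from -0.49 to -0.06 for miR-30a-5p over miR-30a-3p, -0.15 to -0.02 for miR-30e-5p over miR-30e-3p, -0.69 to -0.44 for miR-30a-5p over miR-30c-5p, 0.40 to 0.53 for miR-30b-5p over miR-30d-5p and -0.68 to -0.42 for miR-30e-5p over miR-30c-5p, and from -0.03 to 0.04 for the 5p share of miRNA reads. The causes were not tested. The call count of the treatment by run term was 3 with a pseudocount of 5, where 645 of the 1701 features passed. Per miRNA read it was 2, where 601 passed.

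The labels give the Ion Proton libraries shared letters, but the deviations of same-lettered libraries had a correlation of -0.0309 over 2029 features, and the letters were not taken as a pairing. With the replicate block 2 members passed in the Ion Proton run by edgeR and 0 in the limma model of both runs. In the latter 2 had an unadjusted p under 0.05. Of all features, 359 of 2029 passed in the former and 29 of 1701 in the latter. Counting limits the miR-30a-3p values of the SOLiD run, and 1 library per group limits all SOLiD values.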
